A study of Mus musculus with 12 samples.

Results

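Zic1, Zic2, Zic4 and Zic5 belong to the Zic family of zinc finger transcription factors, relatives of the Gli factors of the Hedgehog pathway. They are 4 of the 55487 genes in the deposited count table, found by matching its Ensembl gene identifiers to mouse symbols. The 4 were chosen by family name from results of these same libraries, with their levels and fold changes known. The fold changes and calls given here for them are therefore descriptions and do not support that choice.

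Transcripts were counted in 12 bulk RNA-seq libraries of mouse embryoid bodies, which are floating aggregates of differentiating cells. The starting cells were epiblast stem cells (EpiSCs), a primed pluripotent cell type, obtained in culture from embryonic stem cells. Every group carried the same doxycycline-inducible transgene for FLAG-tagged Mixl1, a homeobox transcription factor of the primitive streak. D1Dox_d2 bodies were given doxycycline at 1 µg/mL and collected on day 2, and D3Dox_d4 bodies were given the same dose and collected on day 4. NoDox_d2 and NoDox_d4 bodies were given no drug and were collected on days 2 and 4. Each group has 3 libraries. What the number after the D stands for is not given in the labels, nor whether replicates came from separate cultures. A p-value here thus covers only how far these libraries differ among themselves, which may be technical. They name neither the promoter of the transgene, nor the number of clones, nor cells without the transgene that received doxycycline, so effects of the drug and of Mixl1 cannot be told apart.

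Zic proteins bind DNA through C2H2 zinc fingers and are known from the neural plate, the dorsal neural tube, the neural crest and the somites. Zic2 is expressed in primed pluripotent cells, where it occupies enhancers, and its loss causes holoprosencephaly, a failure of forebrain division, in humans and mice. Zic1 and Zic4 act in the cerebellum and dorsal neural tube, and human deletions that take both genes have been linked to Dandy-Walker malformation of the cerebellum. Zic5 acts in neural tube closure and neural crest in mice.

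The 4 genes lie as divergent pairs at 2 loci. Zic1 (ENSMUSG00000032368.14, chr9:91358058-91365810, minus strand) and Zic4 (ENSMUSG00000036972.14, chr9:91362413-91389348, plus strand) overlap on opposite strands of chromosome 9 in the GRCm38 coordinates of the deposited table, and their annotated starts are 3397 bases apart. Their exons share 60 bases, which is 1.05% of the Zic1 exons and 0.581% of the Zic4 exons. Read pairs were counted without strand, and a pair that touched exons of both genes was counted for neither. Zic5 (ENSMUSG00000041703.7, chr14:122456795-122465677, minus strand) and Zic2 (ENSMUSG00000061524.8, chr14:122475435-122479852, plus strand) lie on chromosome 14 with starts 9758 bases apart and share no exon base. A noncoding gene, 2610035F20Rik, lies between them.

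The coding sequences are related, which bears on whether reads of one member could be counted for another. Over coding sequences of the GENCODE M21 transcripts, pairwise identity was 71.7% to 78.6%, and the longest run of identical bases between any 2 members was 42 bases, between Zic1 and Zic4. The deposited counts came from paired reads of 150 bases. A stretch of 90 coding bases that begins inside that run is printed here for the 4 genes, with capitals at the 73 positions that are the same in all 4.
Zic1: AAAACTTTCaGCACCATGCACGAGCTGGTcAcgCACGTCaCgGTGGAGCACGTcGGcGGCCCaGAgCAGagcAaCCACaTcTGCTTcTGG
Zic4: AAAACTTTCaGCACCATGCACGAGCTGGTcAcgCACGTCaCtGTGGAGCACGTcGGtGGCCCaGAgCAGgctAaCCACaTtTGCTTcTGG
Zic2: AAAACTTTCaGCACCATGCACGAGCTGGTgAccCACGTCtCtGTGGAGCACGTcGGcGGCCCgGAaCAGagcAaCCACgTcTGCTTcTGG
Zic5: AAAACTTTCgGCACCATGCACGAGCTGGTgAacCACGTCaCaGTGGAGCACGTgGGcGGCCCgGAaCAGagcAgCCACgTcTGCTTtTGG
Compared with Zic1 over these 90 bases, Zic4 has 84 identical bases, Zic2 has 83 and Zic5 has 79. The stretch was taken from the longest run between Zic1 and Zic4. Over the whole coding sequence, Zic1 was 75.6% identical to Zic4 and 78.6% identical to Zic2.

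The promoters of the Zic1 and Zic4 pair are shown because these genes had the largest day 2 fold changes of the 4, and that of Zic5 is shown for the other locus. Each is the 300 bases of the RefSeq table for GRCm38.p6 around the RefSeq start, written on the strand of the gene. The Zic1 and Zic5 windows contain the start of the gene in the deposited table, while the Zic4 window begins 6309 bases downstream of it, so the Zic4 window describes another start than the one used above for the spacing of the pair. Capitals mark matches on either strand to 3 short motifs that a search found here. The first is the CCAAT box, written as its name says. The next is the GC box, searched as GGGCGG on both strands. The last is a palindromic form of the E-box, searched as CACGTG on both strands. No match overlaps another.
Zic1 promoter, chr9:91365719-91366018, minus strand: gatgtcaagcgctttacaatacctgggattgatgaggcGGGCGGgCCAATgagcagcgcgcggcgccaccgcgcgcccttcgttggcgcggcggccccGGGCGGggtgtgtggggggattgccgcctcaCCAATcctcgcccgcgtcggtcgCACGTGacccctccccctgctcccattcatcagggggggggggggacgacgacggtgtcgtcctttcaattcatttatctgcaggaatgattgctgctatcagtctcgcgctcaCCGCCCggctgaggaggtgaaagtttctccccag
Zic4 promoter, chr9:91368722-91369021, plus strand: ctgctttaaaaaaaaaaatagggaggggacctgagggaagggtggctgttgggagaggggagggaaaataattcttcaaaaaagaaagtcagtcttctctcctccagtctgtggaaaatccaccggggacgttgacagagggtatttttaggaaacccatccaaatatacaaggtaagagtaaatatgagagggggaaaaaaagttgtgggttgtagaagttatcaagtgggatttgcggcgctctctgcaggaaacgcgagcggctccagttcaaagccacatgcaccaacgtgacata
Zic5 promoter, chr14:122465609-122465908, minus strand: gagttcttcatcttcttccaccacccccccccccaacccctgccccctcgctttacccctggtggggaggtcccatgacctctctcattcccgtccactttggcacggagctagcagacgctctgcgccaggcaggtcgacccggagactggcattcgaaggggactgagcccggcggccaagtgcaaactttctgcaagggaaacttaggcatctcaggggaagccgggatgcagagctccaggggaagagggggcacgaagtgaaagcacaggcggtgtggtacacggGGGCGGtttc
The Zic1 window holds 31 CpG dinucleotides and is 65.3% G or C, the Zic4 window 8 and 46.0%, and the Zic5 window 15 and 62.7%. The median of the 32851 windows of the table is 7 CpG dinucleotides and 52.7%. The Zic1 window holds 2 matches to the CCAAT box, 3 to the GC box and 1 to the E-box. In the Zic5 window there is 1 match, to the GC box, and the Zic4 window has none. Over all windows, 37.4% hold the CCAAT box, 35.7% the GC box and 7.15% the E-box. A TATA box, searched as TATAAA on both strands, is in none of the 3 windows and in 13.6% of all windows. The homeodomain core, searched as TAATTA on both strands, is likewise in none of the 3 and in 5.29% of all windows.

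Library totals ran from 24100487 to 28020036 counts, so 3 counts in a library correspond to 0.107 to 0.124 CPM (counts scaled to a common library size). Levels below are CPM scaled by TMM (trimmed mean of M values, a correction for library composition). Mixl1 RNA was checked first. Its counts are those of the annotated gene, so RNA of the transgene and of the cells' own Mixl1 gene cannot be told apart. Mixl1 had 392, 362 and 387 CPM in D1Dox_d2 and 478, 417 and 450 CPM in D3Dox_d4, against 91.0, 0.593 and 1.15 CPM in NoDox_d2 and 1.62, 1.83 and 1.11 CPM in NoDox_d4. One value goes against its label, that of the library labelled NoDox_d2 replicate 1. Replicate 1 of both NoDox groups also stood apart over all genes, with Pearson correlations of log2 CPM of 0.957 to 0.961 to its group, against 0.987 to 0.992 in every other pair within a group. Results are therefore given with all 12 libraries and without these 2.

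On day 2, all 4 Zic genes were lower in D1Dox_d2 than in NoDox_d2, and the range of no gene overlapped between the groups. The fold changes were larger for Zic1 and Zic4 on chromosome 9 than for Zic2 and Zic5 on chromosome 14. In bulk libraries, fewer cells that express a gene and less of its RNA per cell cannot be told apart. The summed level of 10 fibroblast markers differed the other way, with 1869 to 2306 CPM in D1Dox_d2 and 278 to 434 CPM in NoDox_d2, and its part in the Zic differences was not tested.

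Zic1 had 2.01, 1.38 and 2.47 CPM in D1Dox_d2, from 53, 34 and 57 counts, against 12.9, 79.0 and 60.0 CPM in NoDox_d2. The lowest untreated value belongs to the library labelled NoDox_d2 replicate 1, and it still lies above every treated one. The fitted log2 fold change was -4.69 ± 0.75 (SE), a level 25.9-fold lower in D1Dox_d2.

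Zic4 had 1, 0 and 3 counts in D1Dox_d2, which are 0.0379, 0 and 0.130 CPM, against 0.388, 3.16 and 2.01 CPM in NoDox_d2. No treated library holds more than 3 Zic4 counts, and every untreated one holds more. From 4 summed counts in D1Dox_d2 and 145 in NoDox_d2, the level in NoDox_d2 was 33.7 times that in D1Dox_d2 (95% exact interval 12.9 to 125, counting error only). The fitted log2 fold change of -4.97 ± 1.01 (SE) rests on those 4 counts and on the prior count of the fit.

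Zic2 had 71.0, 68.7 and 75.0 CPM in D1Dox_d2, against 83.5, 193 and 177 CPM in NoDox_d2. Zic5 had 27.3, 23.1 and 27.6 CPM in D1Dox_d2, against 36.6, 88.0 and 85.2 CPM in NoDox_d2. In both genes the treated libraries lie close together, and the library labelled NoDox_d2 replicate 1 lies nearer to them than to the other NoDox_d2 libraries. The log2 fold changes were -1.08 ± 0.34 (SE) for Zic2 and -1.43 ± 0.41 (SE) for Zic5.

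In edgeR's quasi-likelihood test, with Benjamini-Hochberg adjustment over the 18109 genes tested and a threshold of 0.05, all 4 were called lower in D1Dox_d2, with adjusted p = 0.000955 for Zic1, 0.00408 for Zic4, 0.0343 for Zic2 and 0.0226 for Zic5. Of all genes tested, 13.4% were called lower in this comparison, and 22.1% had every D1Dox_d2 value below every NoDox_d2 value. The 4 genes were chosen with these values known, so nothing is read from their count against those shares. Without both NoDox replicate 1 libraries the log2 fold changes were -5.16 ± 0.20 for Zic1, -5.46 ± 0.54 for Zic4, -1.38 ± 0.077 for Zic2 and -1.74 ± 0.098 for Zic5 (SE). The Zic1 and Zic4 calls held with any 1 of the 12 libraries left out. The calls of Zic2 and Zic5 were lost when any 1 of D1Dox_d2 replicates 1, 2 and 3 or NoDox_d2 replicates 2 and 3 was left out, with edgeR adjusted p = 0.0822, 0.0939, 0.0852, 0.12 and 0.107 for Zic2 and 0.0561, 0.0761, 0.064, 0.0765 and 0.0761 for Zic5.

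**Figure D1:**
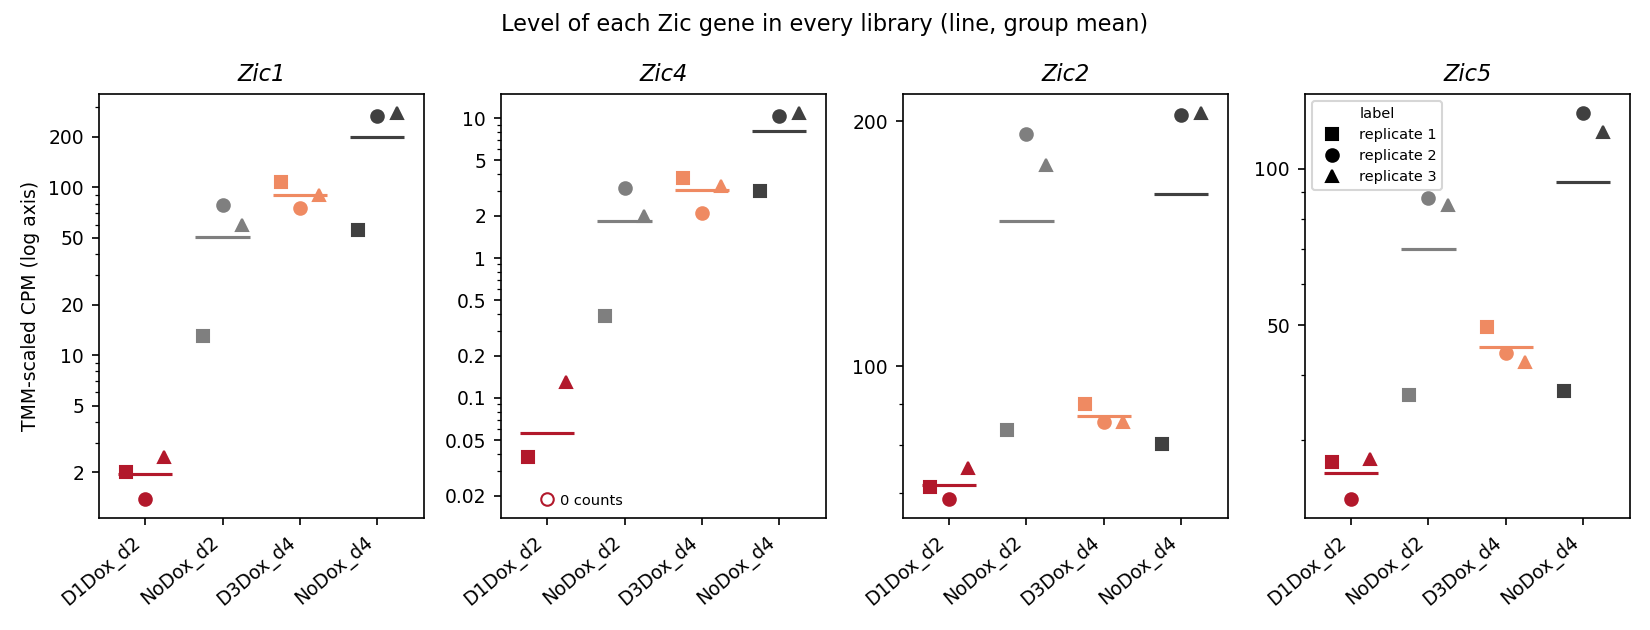
Level of Zic1, Zic4, Zic2 and Zic5 in the 12 libraries, as TMM-scaled CPM on log axes that differ between genes, with squares, circles and triangles for replicates 1, 2 and 3 and a line at each group mean. The 3 D1Dox_d2 libraries are lowest for every gene, the open circle is a D1Dox_d2 library with 0 Zic4 counts, and both NoDox squares lie below the other NoDox libraries of their day.

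On day 4, the D3Dox_d4 means of the 4 genes were again below those of NoDox_d4, but the ranges overlapped for every gene because NoDox_d4 replicate 1 was within or below the D3Dox_d4 range. No gene passed the test with all 12 libraries.

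Zic1 had 107, 75.2 and 89.7 CPM in D3Dox_d4, against 55.7, 268 and 279 CPM in NoDox_d4. Zic4 had 3.76, 2.10 and 3.26 CPM in D3Dox_d4, against 3.04, 10.3 and 10.9 CPM in NoDox_d4. For both, NoDox_d4 replicates 2 and 3 lie above every D3Dox_d4 library, while NoDox_d4 replicate 1 lies below all of them for Zic1 and within their range for Zic4.

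Zic2 had 89.8, 85.3 and 85.4 CPM in D3Dox_d4, against 80.3, 204 and 205 CPM in NoDox_d4. Zic5 had 49.6, 44.1 and 42.4 CPM in D3Dox_d4, against 37.3, 128 and 118 CPM in NoDox_d4. The pattern is that of Zic1, with NoDox_d4 replicate 1 below the treated libraries and the other NoDox_d4 libraries well above them.

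The log2 fold changes were -1.15 ± 0.60 for Zic1, -1.41 ± 0.64 for Zic4, -0.91 ± 0.34 for Zic2 and -1.06 ± 0.40 for Zic5 (SE), with edgeR adjusted p = 0.200, 0.138, 0.0722 and 0.0784 in that order. The count of calls was 0 by edgeR, beside 10.2% of all genes tested called lower. At an unadjusted p under 0.05 it was 3 (Zic2, Zic4 and Zic5), and DESeq2's Wald test called 2 (Zic2 and Zic5, adjusted p = 0.0339 and 0.0331). Without NoDox_d4 replicate 1 edgeR called all 4 lower, with log2 fold changes of -1.59 ± 0.49 for Zic1, -1.80 ± 0.57 for Zic4, -1.23 ± 0.25 for Zic2 and -1.44 ± 0.28 for Zic5 (SE) and adjusted p = 0.0381, 0.0421, 0.00488 and 0.00356. Without the library labelled NoDox_d2 replicate 1, which enters only through the shared estimate of spread, 3 were called, at adjusted p = 0.0382 for Zic4, 0.0228 for Zic2 and 0.0326 for Zic5.

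**Figure D2:**
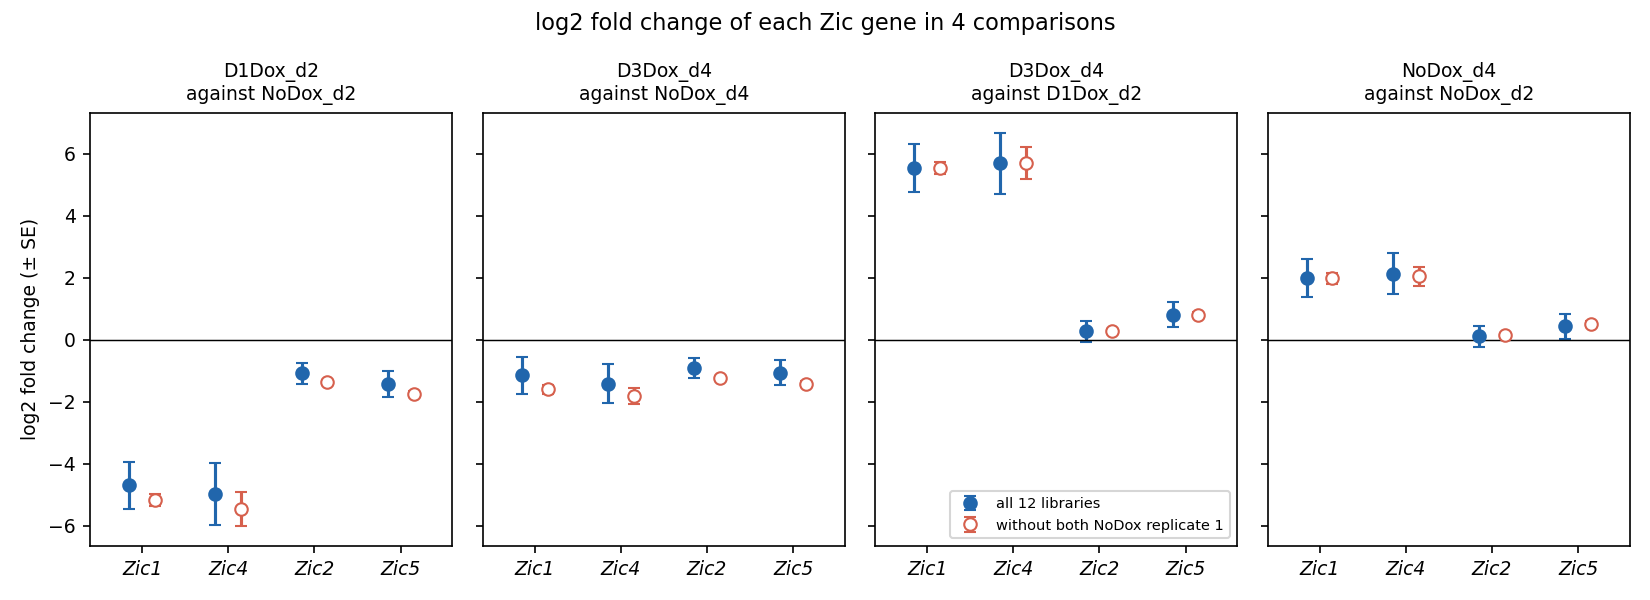
Fitted log2 fold changes of Zic1, Zic4, Zic2 and Zic5 with standard errors, for both doxycycline comparisons and both comparisons of day 4 with day 2. Filled points use all 12 libraries and open points leave out both NoDox replicate 1 libraries. With all libraries, Zic1 and Zic4 stand at -4.69 and -4.97 in the D1Dox_d2 panel, and the 4 genes lie between -1.41 and -0.91 in the panel for D3Dox_d4 against NoDox_d4.

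The doxycycline effect on day 4 was then compared with that on day 2. The difference of the log2 fold changes, day 4 minus day 2, was 3.55 ± 0.93 (SE) for Zic1 and 3.56 ± 1.24 for Zic4, and it was 0.17 ± 0.47 for Zic2 and 0.37 ± 0.56 for Zic5. In edgeR's interaction test Zic1 was called, with adjusted p = 0.0293, beside 6.66% of all genes called with a higher value on day 4. Zic4 was not called (adjusted p = 0.0813), nor were Zic2 (0.841) and Zic5 (0.693). Whether these differences are larger at one locus than at the other was not tested. Without both NoDox replicate 1 libraries, edgeR called Zic1 (3.57 ± 0.26, adjusted p = 2.62e-07) and Zic4 (3.66 ± 0.69, adjusted p = 0.000939). The Zic1 call was lost, at edgeR adjusted p of 0.0577 to 0.0787, when any 1 of D1Dox_d2 replicates 1, 2 and 3, D3Dox_d4 replicates 1 and 3 or NoDox_d2 replicates 2 and 3 was left out.

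Under doxycycline, day 4 was compared with day 2. D3Dox_d4 and D1Dox_d2 libraries did not overlap for any of the 4 genes, with every D3Dox_d4 value higher, and 33.7% of all genes tested showed that order. Zic1 averaged 90.6 ± 16 CPM in D3Dox_d4 and 1.95 ± 0.545 CPM in D1Dox_d2 (SD, n = 3 each). Its log2 fold change was 5.54 ± 0.77 (SE, edgeR adjusted p = 0.000246). Zic4 averaged 3.04 ± 0.851 CPM in D3Dox_d4 and 0.0559 ± 0.0668 CPM in D1Dox_d2 (SD, n = 3 each), and its level was 57.5 times higher in D3Dox_d4 by counts (95% exact interval 22.2 to 213). Its fitted log2 fold change was 5.69 ± 0.99 (SE, edgeR adjusted p = 0.000980).

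The chromosome 14 genes had smaller fold changes, and the loci were not tested against each other. Zic2 averaged 86.8 ± 2.57 CPM in D3Dox_d4 and 71.6 ± 3.20 CPM in D1Dox_d2, and Zic5 averaged 45.4 ± 3.75 CPM in D3Dox_d4 and 26.0 ± 2.49 CPM in D1Dox_d2 (SD, n = 3 each). Their log2 fold changes were 0.28 ± 0.34 and 0.81 ± 0.40 (SE), with edgeR adjusted p = 0.521 and 0.124. edgeR thus called 2 of the 4 genes, beside 22.6% of all genes tested called higher. When the spread was estimated from these 6 libraries alone, whose replicates lie close together, all 4 were called, with edgeR adjusted p = 0.0124 for Zic2 and 7.45e-05 for Zic5.

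Without doxycycline, Zic1 averaged 201 ± 126 CPM in NoDox_d4 and 50.6 ± 34.0 CPM in NoDox_d2, and Zic4 averaged 8.09 ± 4.39 CPM in NoDox_d4 and 1.85 ± 1.39 CPM in NoDox_d2 (SD, n = 3 each). The wide spread comes from the replicate 1 libraries, and for each replicate number the day 4 library was the higher one. The log2 fold changes were 1.99 ± 0.62 for Zic1, 2.13 ± 0.66 for Zic4, 0.11 ± 0.33 for Zic2 and 0.43 ± 0.40 for Zic5 (SE). edgeR called 0 of the 4 (adjusted p = 0.0629, 0.0620, 0.883 and 0.552), beside 5.09% of all genes called higher. At an unadjusted p under 0.05 the count was 2, Zic1 and Zic4, and DESeq2 called the same 2 genes. With the replicate number as a block in a fit of these 6 libraries, edgeR called Zic1 (2.02 ± 0.12, adjusted p = 0.00307) and Zic4 (2.28 ± 0.30, adjusted p = 0.00837). That fit was not planned, and the labels do not say that the numbers mark pairs. Without both replicate 1 libraries, Zic1 (1.98 ± 0.17), Zic4 (2.04 ± 0.30) and Zic5 (0.51 ± 0.11) were called higher by edgeR, with adjusted p = 1.58e-06, 0.000189 and 0.00273. The comparisons over time share their libraries with the doxycycline comparisons and are not independent of them.

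Between genes, levels can be set side by side only per length of exon. In CPM per kilobase of exon, Zic2 was the highest of the 4 in every group mean, with 24.9 ± 1.11 in D1Dox_d2, 30.1 ± 0.892 in D3Dox_d4, 52.4 ± 20.5 in NoDox_d2 and 56.6 ± 24.9 in NoDox_d4 (SD, n = 3 each). Zic1 was at 0.343 ± 0.0958 in D1Dox_d2, 15.9 ± 2.81 in D3Dox_d4, 8.89 ± 5.97 in NoDox_d2 and 35.3 ± 22.1 in NoDox_d4. Zic5 was at 5.31 ± 0.509 in D1Dox_d2, 9.28 ± 0.766 in D3Dox_d4, 14.3 ± 5.91 in NoDox_d2 and 19.3 ± 10.2 in NoDox_d4. Zic4 was the lowest in every group, and its highest mean was 0.783 ± 0.425 in NoDox_d4.

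Within each gene the order of the group means differed by locus. For Zic1 and Zic4 it ran D1Dox_d2, NoDox_d2, D3Dox_d4, NoDox_d4 from low to high, and for Zic2 and Zic5 it ran D1Dox_d2, D3Dox_d4, NoDox_d2, NoDox_d4. The lowest place of D1Dox_d2 lies outside the range of the next group for all 4 genes. The other neighbours in these orders overlap in range for all 4 genes.

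The make-up of the summed Zic level followed. In CPM per kilobase, Zic1 was 0.843% to 1.35% of the 4-gene sum in D1Dox_d2, 25.4% to 31.1% in D3Dox_d4, 5.85% to 14% in NoDox_d2 and 21.5% to 33.7% in NoDox_d4. Zic2 was 80.6% to 82.8% of it in D1Dox_d2, 51.5% to 56.9% in D3Dox_d4, 67.5% to 74.7% in NoDox_d2 and 48.8% to 61.2% in NoDox_d4. The NoDox replicate 1 libraries lie at the low end of the Zic1 share of their groups. They hold less Zic1 relative to Zic2 and to Zic5, as well as less Zic RNA. Set against Zic4, the 2 libraries differ. The NoDox_d4 one has the fewest Zic1 counts per Zic4 count of its group (18.4), while the NoDox_d2 one has the most (33.3).

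**Figure D3:**
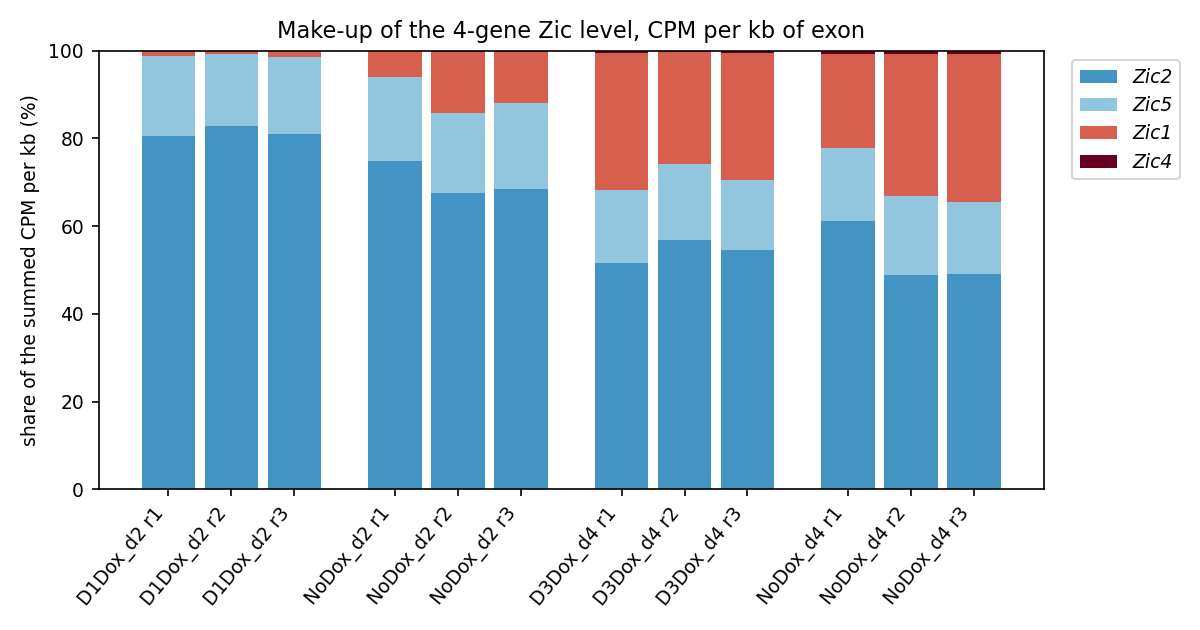
Share of Zic2, Zic5, Zic1 and Zic4 in the summed CPM per kilobase of exon of the 4 genes, 1 bar for each library (r1 to r3 are replicates 1 to 3). Zic1 takes 0.843% to 1.35% of the D1Dox_d2 bars and 21.5% to 33.7% of the NoDox_d4 bars, and Zic4 is a thin band at the top.

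Within a locus, counts of the paired genes were set against each other as a ratio. There were 18.4 to 35.8 Zic1 counts for each Zic4 count in the 9 libraries outside D1Dox_d2, although Zic1 itself ranged from 12.9 to 279 CPM in them. In D1Dox_d2 the ratio rests on 1, 0 and 3 Zic4 counts. Zic1 and Zic4 overlap on opposite strands and were counted without strand, and the part of this in their ratio was not tested. Zic2 counts per Zic5 count were 2.60, 2.97 and 2.72 in D1Dox_d2 and 1.81, 1.93 and 2.01 in D3Dox_d4, against 2.28, 2.19 and 2.08 in NoDox_d2 and 2.15, 1.59 and 1.74 in NoDox_d4. The D1Dox_d2 ratios are the highest of the 12. Zic2 itself varied less than Zic1, from 68.7 to 205 CPM over the 12 libraries.

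**Figure D4:**
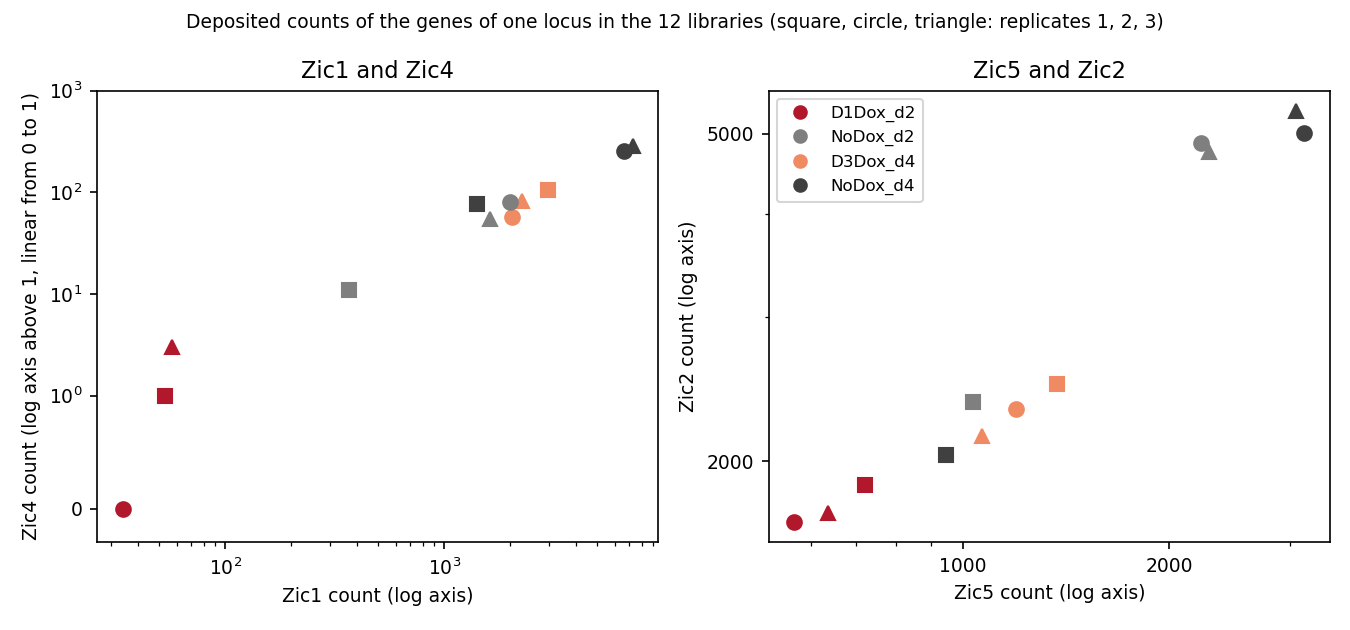
Deposited counts of Zic4 against Zic1 and of Zic2 against Zic5 in the 12 libraries, on log axes except for Zic4 between 0 and 1, with colours for groups and squares, circles and triangles for replicates 1, 2 and 3. The libraries lie along a line in both panels, with D1Dox_d2 at the lower left (53, 34 and 57 Zic1 counts) and NoDox_d4 replicates 2 and 3 at the upper right.

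The likeness of profiles was measured as the root-mean-square difference between log2 CPM profiles over the 12 libraries after centring each gene, among the 18109 genes tested, with genes of at least 1 CPM on average named. It is a description over libraries that share their groups. For Zic1 the nearest gene was Zic4, at 0.393 log2 units, and no gene tested was closer to either. Their overlap was counted without strand, and its part in this likeness was not tested. Next to Zic1 came Msx3 (0.569), a homeobox gene of the dorsal neural tube, Cyp26b1 (0.578), an enzyme that degrades retinoic acid, Fgfbp3 (0.803), which encodes a fibroblast growth factor binding protein, and Mir124-2hg (0.883), a host transcript of the neuronal miR-124. Zic4 had the same nearest genes, with Pax3 (0.741), a paired-box factor of the dorsal neural tube and somites, in place of Mir124-2hg. Msx3, for example, ranged from 1.30 to 2.12 CPM in D1Dox_d2 and 28.7 to 46.9 CPM in D3Dox_d4, against 4.24 to 33.6 CPM in NoDox_d2 and 23.1 to 114 CPM in NoDox_d4.

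For Zic5 the nearest gene of that level was Zic2, at 0.257, followed by Top1mt (0.264), which encodes a mitochondrial topoisomerase. For Zic2, whose profile varied less, 18 genes were closer than Zic5, led by Tmem47 (0.155), a membrane protein gene, and Zfp710 (0.188), another zinc finger gene. Zic1 and Zic2 were 2.18 apart, and 1595 of the genes tested were closer to Zic1 than Zic2 was.

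The genes that start within 100 kb of a member were compared with it. Around Zic1 and Zic4 the 8 other annotated genes were too low to be tested, with 0 to 60 counts over the 12 libraries. The highest of these, Gm37477, shares 468 exon bases with Zic4, which is 4.53% of the Zic4 exons. On chromosome 14, 2610035F20Rik starts 236 bases from Zic2 on the other strand and was lower on day 2, with 3.03 ± 0.287 CPM in D1Dox_d2 and 6.02 ± 1.34 CPM in NoDox_d2 (SD, n = 3 each, log2 fold change -0.99 ± 0.27, edgeR adjusted p = 0.0201). It was at 4.71 ± 1.47 CPM in D3Dox_d4 and 7.07 ± 1.34 CPM in NoDox_d4 (edgeR adjusted p = 0.142). Pcca, a mitochondrial carboxylase gene that starts 58889 bases from Zic2, was at 18.1 ± 1.54 CPM in D1Dox_d2 and 24.4 ± 4.89 CPM in NoDox_d2 and at 30.8 ± 1.16 CPM in D3Dox_d4 and 26.2 ± 2.57 CPM in NoDox_d4. Its log2 fold change was -0.43 ± 0.15 on day 2 (edgeR adjusted p = 0.0484) and 0.23 ± 0.15 on day 4 (0.290), so the day 4 value has the opposite sign to that of Zic2. A gene model named Gm5089 (ENSMUSG00000115263.1, start 68692 bases from Zic2) had a low level, at 0.0677 ± 0.0471 CPM in D1Dox_d2 and 1.20 ± 0.801 CPM in NoDox_d2 (SD, n = 3 each, log2 fold change -4.04 ± 1.08, edgeR adjusted p = 0.0172). On day 4 its log2 fold change was -2.13 ± 0.76 (SE, edgeR adjusted p = 0.0629). Another model of that symbol (ENSMUSG00000064052.3, start 24320 bases from Zic2) was called lower on day 4, with 0.213 ± 0.112 CPM in D3Dox_d4 and 1.43 ± 0.608 CPM in NoDox_d4 (SD, n = 3 each, log2 fold change -2.72 ± 0.67, edgeR adjusted p = 0.0121). On day 2 its log2 fold change was -2.14 ± 0.76 (SE, edgeR adjusted p = 0.0532). The other 4 genes of this window had 0 to 7 counts over all libraries and were not tested.

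Gene lists around the Zic family were counted in the same fits, with all 12 libraries. Over all genes tested, 14.9% were called higher and 13.4% lower on day 2, and 13.4% were called higher and 10.2% lower on day 4. Several of the list counts lie near those shares, and none is read as particular to its list. Of 6 Gli-related zinc finger factors, 1 was lower on day 2 (Gli2, log2 fold change -0.86 ± 0.14), with a list median of -0.014 beside -0.030 over all genes tested. On day 4, 3 of the 6 were lower, namely Gli1 (-3.47 ± 0.40), itself a target of Hedgehog signalling, Gli3 (-1.18 ± 0.15), mainly a repressor, and Gli2 (-0.75 ± 0.14), with a median of -0.48 beside -0.031.

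The Hedgehog and forebrain midline list had 14 of 15 genes tested. On day 2, 2 were higher, led by Hhip (5.50 ± 0.27), a membrane protein that binds and restrains Hedgehog ligands, and 3 were lower, led by Gas1 (-2.22 ± 0.26), a co-receptor, with a median of -0.068. On day 4, 3 were higher and 7 lower, with Hhip at 2.47 ± 0.22, the receptor and target Ptch1 at -2.08 ± 0.20 and the ligand Shh at -5.70 ± 0.60, and the median was -0.49.

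Of 14 tested genes of the dorsal neural tube and neural plate border, 2 were higher and 4 lower on day 2 (median -0.28). Pax3 was at -3.65 ± 0.51 and Olig3, a basic helix-loop-helix factor of dorsal interneurons, at -3.39 ± 0.58, while Gdf7, a roof plate ligand, was at 3.58 ± 0.53. On day 4, 3 were higher and 2 lower (median -0.21), with Gdf7 at 4.54 ± 0.44 and Lmx1a, a roof plate homeobox factor, at -5.75 ± 0.67. Of 12 genes of primed epiblast and early neural plate, 1 was higher and 5 lower on day 2 (median -0.53), and 1 was higher and 4 lower on day 4 (median -0.57). Sox3, a neural plate factor, was lower on both days, at -3.03 ± 0.17 on day 2 and -2.12 ± 0.17 on day 4.

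Of 9 tested paraxial mesoderm and somite genes, 1 was higher and 3 lower on day 2 (median 0.14), and 1 was higher and 4 lower on day 4 (median -1.81). The higher gene on both days was Uncx, at 3.31 ± 0.28 on day 2 and 1.61 ± 0.23 on day 4, and it had the lowest adjusted p of the list. Among the lower genes, Meox1, a somite homeobox factor, was at -4.46 ± 0.71 on day 2 and -2.56 ± 0.59 on day 4. Of 14 genes of the BMP pathway, which opposes Hedgehog signalling in the neural tube, 4 were higher and 1 lower on day 2 (median 0.42), and 3 were higher and 1 lower on day 4 (median 0.18). Bmp2, a ligand, was at 1.61 ± 0.16 on day 2 and 1.18 ± 0.16 on day 4. The errors of these log2 fold changes are SEs, and all genes named were called by edgeR's quasi-likelihood test.

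Markers of cell types were counted in the same fits. Beside them stand the shares over all genes tested, 14.9% called higher and 13.4% lower on day 2. On day 4 these shares were 13.4% higher and 10.2% lower. Counts of 1 in 5 markers lie near them, and none is read as particular to a cell type. The 8 primed epiblast markers, which include Pou5f1 and Otx2, summed to 970 to 1063 CPM in D1Dox_d2 and 414 to 457 CPM in D3Dox_d4, against 1349 to 1528 CPM in NoDox_d2 and 436 to 794 CPM in NoDox_d4. On day 2, 3 of the 8 were lower and none was higher, and on day 4, 4 were lower and none was higher. The 5 neural progenitor markers, which include Sox1 and Pax6, summed to 211 to 227 CPM in D1Dox_d2 and 415 to 485 CPM in D3Dox_d4, against 392 to 556 CPM in NoDox_d2 and 403 to 870 CPM in NoDox_d4. On day 2, 3 of these 5 were lower and 1 was higher, and on day 4, 1 was higher and none was lower. D1Dox_d2 lies lowest in this sum, as it does for the Zic genes.

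The 10 fibroblast markers, among them Col1a1 and Postn, summed to 1869 to 2306 CPM in D1Dox_d2 and 441 to 529 CPM in D3Dox_d4, against 278 to 434 CPM in NoDox_d2 and 166 to 650 CPM in NoDox_d4. On day 2, 9 of the 10 were higher in D1Dox_d2 and none was lower, while on day 4, 1 was higher and 4 were lower in D3Dox_d4. The 5 neuronal markers, among them Tubb3 and Elavl3, summed to 248 to 310 CPM in D1Dox_d2 and 1022 to 1185 CPM in D3Dox_d4, against 145 to 242 CPM in NoDox_d2 and 87.9 to 344 CPM in NoDox_d4. On day 2, 1 of the 5 was higher in D1Dox_d2, and on day 4 all 5 were higher in D3Dox_d4. In both NoDox groups, the library numbered 1 had the lowest Zic levels of its group. It also had the lowest neuronal and neural progenitor sums of its group and the highest fibroblast sum. Its primed epiblast sum differed by day. In NoDox_d2 it was the highest, at 1528 CPM against 1349 and 1526 CPM. In NoDox_d4 it was the lowest, at 436 CPM against 794 and 677 CPM. No marker of the 4 lists was at 0 in any library. The part of the cell types, and of the libraries numbered 1, in the Zic differences was not tested.

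**Figure D5:**
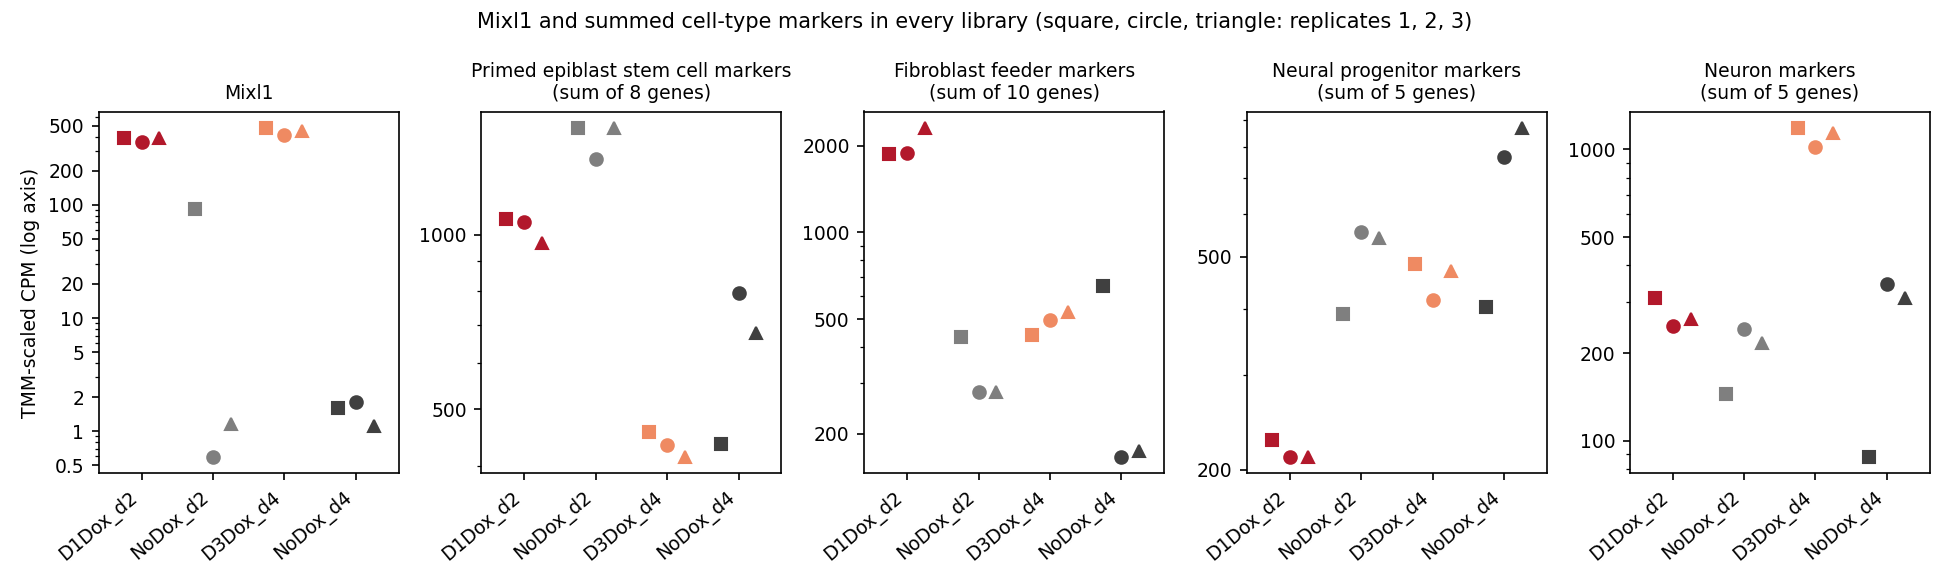
Mixl1 and the summed markers of 4 cell types in the 12 libraries, as TMM-scaled CPM on log axes that differ between panels, with squares, circles and triangles for replicates 1, 2 and 3. The library labelled NoDox_d2 replicate 1 stands at 91.0 CPM of Mixl1, and the fibroblast sum is 1869 to 2306 CPM in D1Dox_d2.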

How the data were processed

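Bulk RNA-seq libraries were compared in 4 groups of 3. Per the labels' protocols, NEBNext Ultra II libraries were sequenced as paired reads of 150 bases and trimmed with Trim Galore to at least 50 bases. STAR, DESeq2 and the assembly GRCm38 (mm10) are named in the submitters' processing notes. The deposited table holds unnormalized counts, made by featureCounts 2.0.1 from read pairs with GENCODE vM25 and no strand setting per the file headers, beside each gene's summed exon length as the authors' counter gave it. Reads of a gene and of an antisense partner were thus counted alike.

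Genes were matched to symbols for 55141 of 55487 identifiers. The counts of all 12 libraries were fitted with edgeR 4.0.16 (R 4.3.3), with 1 coefficient for each group, filterByExpr, TMM scaling, the quasi-likelihood F-test and Benjamini-Hochberg adjustment over 18109 genes, at a threshold of 0.05 and with 8 residual degrees of freedom. The fit was tested on simulated counts. CPM levels use TMM scaling. Alternatives were DESeq2 1.42.0, other scalings and filters, robust moderation, only the groups compared, a replicate block and libraries left out. The 4 members, the gene lists and the markers were chosen with earlier results of these data known. Named were the members, for each the up to 5 genes of nearest profile with a mean of at least 1 CPM, genes that start within 100 kb, and in each list up to 3 called genes with the lowest adjusted p. No replicate pair agreed within sampling noise. Counting intervals and the 3-count floor cover counting error only.

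Whether replicate numbers pair libraries was checked by correlating deviations from group means over all genes tested. For NoDox_d4 and NoDox_d2 the correlations of same-numbered libraries were 0.545, 0.361 and 0.308. Deviations of 3 libraries from their own mean cancel out, and replicate 1 stood apart in both groups. The values of the other numbers thus partly follow from replicate 1, and the check cannot show that numbers are pairs. The fit of the NoDox libraries with a replicate block was not planned and is given only as an alternative. For every other combination of groups at least 1 number had a correlation of 0.1 or less. Promoter sequences are RefSeq's (GRCm38.p6, 3 of 4 members matched), and coding sequences were built from GENCODE M21.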

Additional observations from a re-analysis of the deposited data

Results flagged for a closer look

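The doxycycline effect on Zic1 differed between the days in edgeR's interaction test. The log2 fold change was -1.15 ± 0.60 for D3Dox_d4 against NoDox_d4 and -4.69 ± 0.75 for D1Dox_d2 against NoDox_d2 (SE), a difference of 3.55 ± 0.93 with edgeR adjusted p = 0.0293. Zic1 was chosen with these values known, and its call was lost in 7 refits that each left out 1 library (edgeR adjusted p of 0.0577 to 0.0787). Zic4 had a difference of 3.56 ± 1.24 (SE) and was not called (edgeR adjusted p = 0.0813). All 3 D1Dox_d2 libraries lay below all 3 NoDox_d2 libraries for Zic1, an order shown by 22.1% of all genes tested. The D3Dox_d4 and NoDox_d4 libraries overlapped. The groups differ in day and possibly in the length of treatment, which the labels leave undefined, and these cannot be told apart.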

How the results depend on the processing

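The 4 group levels of each gene kept within 1 SD under the other scalings. Of 420 refitted Zic log2 fold changes, 361 kept direction and side of the threshold, 36 newly passed it, 17 no longer passed and 6 changed sign; the cause was not tested.

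Counts of Zic genes called moved as follows. For D3Dox_d4 against NoDox_d4, with 0 called, no low-count filter gave 2, DESeq2's Wald test 2 and leaving out both NoDox replicate 1 libraries 4. For the difference of the doxycycline effects, with 1 called, each of these settings gave 2. For NoDox_d4 against NoDox_d2, with 0 called, they gave 2, 2 and 3. For D3Dox_d4 against D1Dox_d2, with 2 called, only the groups compared gave 4 and leaving out both NoDox replicate 1 libraries 4. With 1 library left out in turn, the counts ran from 2 to 4 on day 2, 0 to 4 on day 4, 0 to 2 for the difference, 0 to 2 for NoDox_d4 against NoDox_d2 and 2 to 3 for D3Dox_d4 against D1Dox_d2.

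Over all genes, leaving out both NoDox replicate 1 libraries gave 9902 calls in place of 5136 on day 2, 7168 in place of 4263 on day 4, 6424 in place of 2336 for the difference and 4534 in place of 1926 for NoDox_d4 against NoDox_d2, where only the groups compared gave 206. With 1 library left out in turn the calls ran from 3048 to 7438 on day 2, 2756 to 5554 on day 4, 1226 to 5037 for the difference, 1064 to 3208 for NoDox_d4 against NoDox_d2 and 5976 to 9425 for D3Dox_d4 against D1Dox_d2.

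Sign changes touched values near 0. With 1 library left out in turn, the Zic2 difference ran from -0.15 (without NoDox_d4 replicate 1) to 0.48, with -0.037 without NoDox_d2 replicate 2, and the Zic5 difference from -0.0012 (without NoDox_d4 replicate 1) to 0.70. Zic2 in NoDox_d4 against NoDox_d2 ran from -0.19 (without the library labelled NoDox_d2 replicate 1) to 0.44, with -0.082 and -0.087 without NoDox_d4 replicates 2 and 3.

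With the replicate block in the fit of all 12 libraries, the Zic genes called stayed at 4, 0, 1, 0 and 2 in the order of comparisons above starting from day 2, and 5105, 4312, 2448, 1841 and 8073 genes were called in all. With the replicate block in the fit of the NoDox libraries alone, 2 Zic genes were called in place of 0, and 1928 genes in all. Depth limits Zic4 in D1Dox_d2, with 4 counts over 3 libraries.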
